A study of Drosophila melanogaster with 9 samples.

Results

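The cuticle protein genes described here are the Cpr, Lcp and Twdl genes of Drosophila melanogaster, as measured by RNA-seq in the larval ring gland. They were chosen by name: every gene of the deposited table whose symbol starts with Cpr and a digit, with Lcp or with Twdl, which gave 110 of 14409 rows (70 Cpr, 15 Lcp and 25 Twdl genes). The study compared ring glands of w1118 larvae, a white-eyed laboratory strain used as wild type, in 3 groups of 3 libraries: larvae starved after the NRC (post-NRC starvation), larvae starved before it (pre-NRC starvation) and control larvae that went on feeding. NRC is not spelled out in the labels; in this field it stands for the nutrient restriction checkpoint, the larval stage after which starved larvae can still go on to metamorphosis. Each library came from a pool of about 1200 glands, so a value is the mean of many animals and a p value measures the spread between such pools. In the table, the feeding columns are headed 108 h without a start point; for the starved larvae, the sources used here state neither age nor duration of starvation. Larval age and starvation therefore cannot be told apart in any comparison between a starved group and the feeding group. Between the starved groups, the stage, the age and the duration of starvation cannot be told apart either.

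Insect cuticle is a layer of chitin fibres in a protein matrix that epidermal cells, and the related cells of trachea, foregut and hindgut, secrete anew before each moult. Most Cpr and Lcp proteins carry the Rebers-Riddiford domain, which binds chitin, and the Twdl (Tweedle) proteins are a separate insect family whose mutants have short, wide bodies. Different members are used in different body regions and at different stages, and moulting hormones set the timing. The ring gland is an endocrine organ on the anterior aorta that makes the moulting hormone ecdysone in its prothoracic part, and it is not itself a cuticle-forming tissue.

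The libraries held 29123939 to 36131089 counts. The cuticle protein genes took 0.039 to 0.0639% of them in post-NRC libraries, 0.0531 to 0.0767% in pre-NRC libraries and 0.0484 to 0.14% in feeding libraries, so all results below rest on a small part of the RNA. At least 1 count was seen for 64 to 74 of the 110 genes per post-NRC library, 80 to 87 per pre-NRC library and 60 to 73 per feeding library. The pre-NRC range lies above both others. With 3 libraries against 3, an exact test could not fall below p = 0.1, and none was run. The number of all genes detected per library was not compared. A second principal component over all tested genes (16.5% of the variance) split replicate 3 from replicates 1 and 2 in every group, and results that rest on 1 library are named below.

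All 110 genes were placed in the BDGP6.54 annotation, with 45 on arm 3L, 27 on 2R, 24 on 3R, 8 on X and 6 on 2L. Neighbours lay close together: 14 clusters of at least 3 members, with gaps of up to 25 kb, held 78 of the 110 genes. The largest was the Lcp65A cluster of 17 genes at 3L:6130386-6161589, and the next was a row of 12 Twdl genes at 3R:26619118-26641054. The deposited protein family annotation gave the insect cuticle protein domain to 84 members, the domain DUF243, which is that of the Tweedle proteins, to 25, and none to 1. Exons of 9 members overlap an exon of another gene, and no source used here names the counting tool or its strand setting, so counts of these 9 are uncertain. Among those called below, Lcp9 overlaps an antisense RNA, Cpr73D overlaps Ogdh and Twdlalpha overlaps CG32568.

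Of the 110 genes, 63 passed the filter on low counts and were tested, and 47 were not. Of the 47, 8 had no count in any library (Cpr30F, Cpr47Ed, Cpr49Ab, Cpr62Ba, Cpr65Eb, Cpr76Ba, Cpr76Bd and TwdlR), and the median total over 9 libraries was 15 counts. These rarely counted genes were spread unevenly: 25 of the 47 had a count in some post-NRC library, 37 in some pre-NRC library and 19 in some feeding library, with 363, 574 and 228 counts in all in these groups. Over all genes that failed the filter, too, each pre-NRC library held more counts than any feeding or post-NRC library. The uneven spread is thus not particular to cuticle protein genes. The best counted of them, Cpr65Ec, had 114 counts in post-NRC replicate 3, 42 in feeding replicate 3 and none in the other 7 libraries. TwdlD had 13 counts in pre-NRC replicate 1 and 5 in feeding replicate 2 and none elsewhere. Over all 110 genes, 22 had no count in the post-NRC group, 10 had none in the pre-NRC group and 29 had none in the feeding group, of which 21 were counted in the pre-NRC group. A count of 0 over 3 libraries allows up to 3 counts by sampling alone, and 17 of those 21 had more than 3 in the pre-NRC group. How many of all genes had no count in a group was not determined. Since a gene could enter the test through a single group where it was high, counts over the 63 tested genes do not speak for all 110.

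Because whole pools of glands were sequenced, fewer cells of a type and less RNA per cell cannot be told apart, and markers of some other cell types moved between the groups. Prothoracic gland genes summed to 18400 to 23500 CPM (counts scaled to a common library size with TMM factors) in post-NRC libraries, 4000 to 11500 in pre-NRC libraries and 26800 to 37100 in feeding libraries, and 7 of 9 were lower in pre-NRC than in feeding glands. Among tissues that make cuticle, tracheal markers summed to 1750 to 2550 CPM in post-NRC libraries, 938 to 1790 in pre-NRC libraries and 1580 to 3380 in feeding libraries, and of 12 tested of 14 listed 0 were higher and 1, vvl, was lower in pre-NRC glands. The tracheal receptor gene btl was at 0 in 2 post-NRC and 2 pre-NRC libraries. Epidermal markers summed to 78.7 to 182 CPM in post-NRC, 32.5 to 109 in pre-NRC and 127 to 254 in feeding libraries, and by edgeR 0 of 11 tested passed adjusted p under 0.05 in any comparison (3 had an unadjusted p under 0.05 in pre-NRC against feeding, 0 in post-NRC against feeding and 1 in post-NRC against pre-NRC glands); sha was at 0 in 8 of 9 libraries. The gut list held mostly digestive enzyme genes and did not single out the cuticle-forming foregut and hindgut. Its markers summed to 454 to 1780 CPM in post-NRC, 904 to 3850 in pre-NRC and 75.1 to 390 in feeding libraries. Of 10 tested, 7 were higher and 1 was lower in pre-NRC than in feeding glands. For the other marker lists, pre-NRC against feeding glands gave 4 higher of 10 for muscle and aorta, 5 of 10 for brain and neuron, 3 of 12 for lymph gland and hemocyte, 3 of 5 for corpora cardiaca, 1 of 3 for corpora allata, 2 of 8 for fat body and 1 of 8 for imaginal disc, none lower, and 3 higher and 3 lower of 10 for salivary gland. Over all genes tested, 16.1% were higher and 11.5% lower in pre-NRC than in feeding glands. Counts near these shares, such as 1 of 8 for imaginal disc, do not mark a shift of that tissue. The part of the marker shifts in the cuticle protein results was not tested.

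By the deposited FPKM values, which are scaled per length and so allow a rough comparison of genes, the leading members differed by group. The ratio of FPKM to CPM was not constant for a gene. Lcp1 had 54.6 CPM and 37.5 FPKM in feeding replicate 1, but 85.2 CPM and 126 FPKM in feeding replicate 2. Post-NRC glands had Lcp1 first (154 ± 33.1 FPKM; mean ± SD, n = 3 throughout) and Lcp4 second (126 ± 58.7), followed by Cpr49Ac (44.4 ± 24.3) and Cpr47Eb (40.5 ± 43.8). Pre-NRC glands had Lcp4 (105 ± 111), Cpr47Eb (95 ± 52), Lcp1 (88.7 ± 140) and Cpr65Ay (72 ± 41.3) at the top. Feeding glands were led by the 4 neighbouring larval cuticle genes Lcp4 (307 ± 221), Lcp3 (209 ± 80.5), Lcp1 (189 ± 191) and Lcp2 (107 ± 59.6), ahead of Lcp65Ab1 (64.8 ± 37) and Lcp65Ab2 (58.1 ± 25.8). These SDs are of the size of the gaps, so the order within each top 4 is not firm. Lcp1 to Lcp4 together took 40.8, 41.1 and 47.4% of the members' counts in post-NRC replicates 1, 2 and 3, 7.1, 6.18 and 48.9% in the pre-NRC replicates and 67.1, 67.6 and 69.4% in the feeding replicates. Pre-NRC replicate 3 was thus close to the post-NRC libraries in this share, while replicates 1 and 2 were far below every other library.

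**Figure D1:**
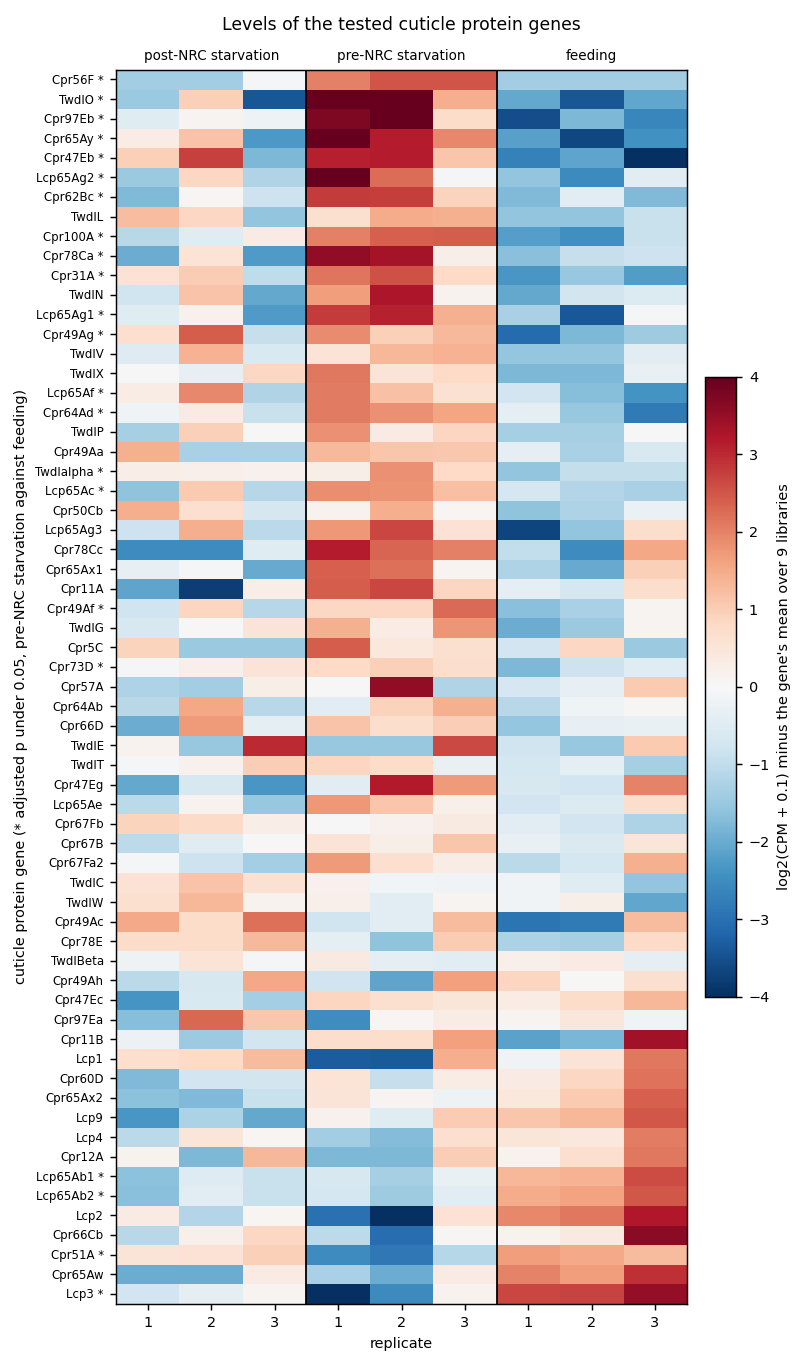
Level of each of the 63 tested cuticle protein genes (down the page, ordered by the log2 change of pre-NRC against feeding glands) in each of 9 libraries (across), as log2(CPM + 0.1) minus the gene's mean over the 9 libraries, with colours capped at 4 on either side. The upper genes are red in pre-NRC libraries and blue in feeding libraries, and the lowest ones, which include Lcp3, Cpr51A, Lcp65Ab1 and Lcp65Ab2, are red in the feeding libraries.

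Pre-NRC starvation against feeding asks how the glands of larvae starved before the checkpoint differ from those of fed larvae. Some cuticle protein genes with low levels in feeding glands were higher in pre-NRC glands, while a few members abundant in feeding glands were lower. The share of all genes at low levels in feeding glands that rose in this way was not determined. At adjusted p under 0.05, 18 of the 63 tested members were higher, against 16.1% of all 10883 genes tested, and 4 were lower, against 11.5% of all genes; the members' shares were 28.6% and 6.35%. At an unadjusted p under 0.05, 24 members were higher and 8 lower, against 23% and 18.3% of all genes. The median log2 change was 1.96 over the tested members, the same with the 1 gene that had no feeding count set at its lower bound, and 0.0013 over all genes tested. Of the 63 tested members, 24 had at least 10 counts in every library. Others, such as Cpr56F, entered the test through their pre-NRC counts, which favours a rise, so this median does not speak for the whole family. By family, 12 of 37 tested Cpr genes were higher and 1 lower, 4 of 13 Lcp genes higher and 3 lower, and 2 of 13 Twdl genes higher and none lower. The 18 higher genes had a median level of 7.75 FPKM in pre-NRC glands and 0.392 FPKM in feeding glands, and 5 of them had under 10 counts in each feeding library. Their number fell to 5 without feeding replicate 1 or without feeding replicate 2, to 9 without pre-NRC replicate 1 and to 8 without pre-NRC replicate 2. Over all genes the number higher fell too, from 1750 to 824, 779, 1115 and 1026 in these fits, in the same order. The 4 lower became 8 without pre-NRC replicate 3, and 7 with the replicate number as a block, which left 17 higher (over all genes the block called 18% higher and 18.8% lower). Without pre-NRC replicate 3, the number of all genes that were lower went from 1248 to 1520.

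The major larval cuticle genes Lcp1, Lcp2, Lcp3 and Lcp4, whose proteins are abundant in the body cuticle of the last larval stage, gave 1 call, Lcp3, which was lower in pre-NRC glands; the other 3 did not pass. Lcp3 had 0.271, 2.67 and 17.8 CPM in pre-NRC replicates 1, 2 and 3, against 103, 106 and 185 CPM in the feeding replicates. Each pre-NRC library lay far below each feeding library, although replicate 3 was the highest of its group in both. The log2 change was -4.24 ± 1.14 (SE; adjusted p = 0.0262), and the call was lost without any one feeding library or without pre-NRC replicate 2, with an adjusted p of up to 0.0883. Lcp2 had 1.72, 0.767 and 21.6 CPM in pre-NRC libraries and 55.1, 61.9 and 134 CPM in feeding libraries, again without overlap. Its log2 change of -3.38 ± 1.12 missed the threshold (adjusted p = 0.053) and passed it with the replicate block (-4.33, adjusted p = 0.0148). Lcp4 had 33.3, 25.8 and 138 CPM in pre-NRC glands and 122, 116 and 356 CPM in feeding glands, and the groups overlapped through pre-NRC replicate 3. It changed by -1.59 ± 0.74 on the log2 scale (adjusted p = 0.137; 0.0361 with the replicate block). Lcp1 had 5.82, 5.77 and 165 CPM in pre-NRC glands and 54.6, 85.2 and 261 CPM in feeding glands, with a log2 change of -1.19 ± 1.18 that did not pass (adjusted p = 0.483). In all 4 genes pre-NRC replicate 3 was several times above replicates 1 and 2. Lcp3 and Lcp4 are close copies, and so are Lcp1 and Lcp2; with the counts of each pair summed, neither passed (Lcp3 plus Lcp4 -2.18, adjusted p = 0.0517; Lcp1 plus Lcp2 -1.70, adjusted p = 0.299).

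Genes of the Lcp65A cluster, which encode further larval cuticle proteins and their Cpr relatives, went both ways. Of 17 genes within 31.2 kb, 12 were tested, 5 were higher in pre-NRC glands (Lcp65Ag1, Lcp65Ag2, Lcp65Af, Lcp65Ac and Cpr65Ay) and 2 were lower (Lcp65Ab1 and Lcp65Ab2). With the replicate block, Cpr65Aw passed as lower too (log2 change -4.74, adjusted p = 0.0353, against -3.56 and 0.141 without the block); it had 0.0603, 0 and 0.389 CPM in pre-NRC libraries and 1.44, 1.15 and 2.88 CPM in feeding libraries, low values that did not overlap. Lcp65Ab1 had 5.46, 3.34 and 6.97 CPM in pre-NRC libraries, against 22, 22.9 and 52.9 CPM in feeding libraries. Its twin Lcp65Ab2 had 4.64, 2.76 and 5.56 CPM in pre-NRC libraries, against 21.6, 23.4 and 43.5 CPM in feeding libraries. For both, all pre-NRC libraries were below all feeding libraries. The log2 changes were -2.63 ± 0.48 (adjusted p = 0.0072) and -2.77 ± 0.46 (adjusted p = 0.00518), both calls held in all 9 fits that left out a library, and the summed counts of this near-identical pair gave -2.70 (adjusted p = 0.00556).

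On the other side of the cluster, Cpr65Ay had 71.6, 37.5 and 16 CPM in pre-NRC libraries, against 0.844, 0.242 and 0.704 CPM in feeding libraries. Every pre-NRC library was above every feeding library, and the call (log2 change 6.12 ± 1.04, adjusted p = 0.00557) also held in all 9 such fits. Lcp65Ag2 had 10.9, 2.64 and 0.445 CPM in pre-NRC libraries and 0.0938, 0 and 0.337 CPM in feeding libraries. That gene is high mainly in replicate 1, and its log2 change of 4.98 ± 1.59 (adjusted p = 0.0469) did not pass with the replicate block (adjusted p = 0.128) and passed in 2 of the 9 fits that left out a library, those without pre-NRC replicate 3 and post-NRC replicate 2. Lcp65Ag1, a close copy, had 22.7, 27.4 and 8.61 CPM in pre-NRC libraries and 1.22, 0.212 and 3.06 CPM in feeding libraries; its log2 change was 3.70 (adjusted p = 0.0252; 0.0576 with the replicate block), lost without feeding or pre-NRC replicate 1 or 2 at up to 0.0905. The summed counts of Lcp65Ag1, Lcp65Ag2 and Lcp65Ag3 gave a log2 change of 3.37 (adjusted p = 0.0339). Lcp65Ac had 20.7, 20 and 13.3 CPM in pre-NRC libraries and 3.41, 2.45 and 2.27 CPM in feeding libraries, an even rise without overlap (log2 change 2.73 ± 0.69, adjusted p = 0.0209). Lcp65Af was lower in level, at 4.16, 2.21 and 1.44 CPM in pre-NRC libraries and 0.5, 0.212 and 0.0918 CPM in feeding libraries, also apart (3.26 ± 1.01, adjusted p = 0.0415). The calls of Lcp65Ac and Lcp65Af were lost without any one feeding library or pre-NRC replicate 1 or 2, and that of Lcp65Af also without post-NRC replicate 1, with adjusted p of up to 0.131. Cpr65Ax2, another Cpr gene of the cluster, had 9.68, 7.33 and 5.86 CPM in pre-NRC libraries and 9.16, 14.1 and 35.7 CPM in feeding libraries, which overlapped (log2 change -1.37 ± 0.52, adjusted p = 0.0781).

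**Figure D2:**
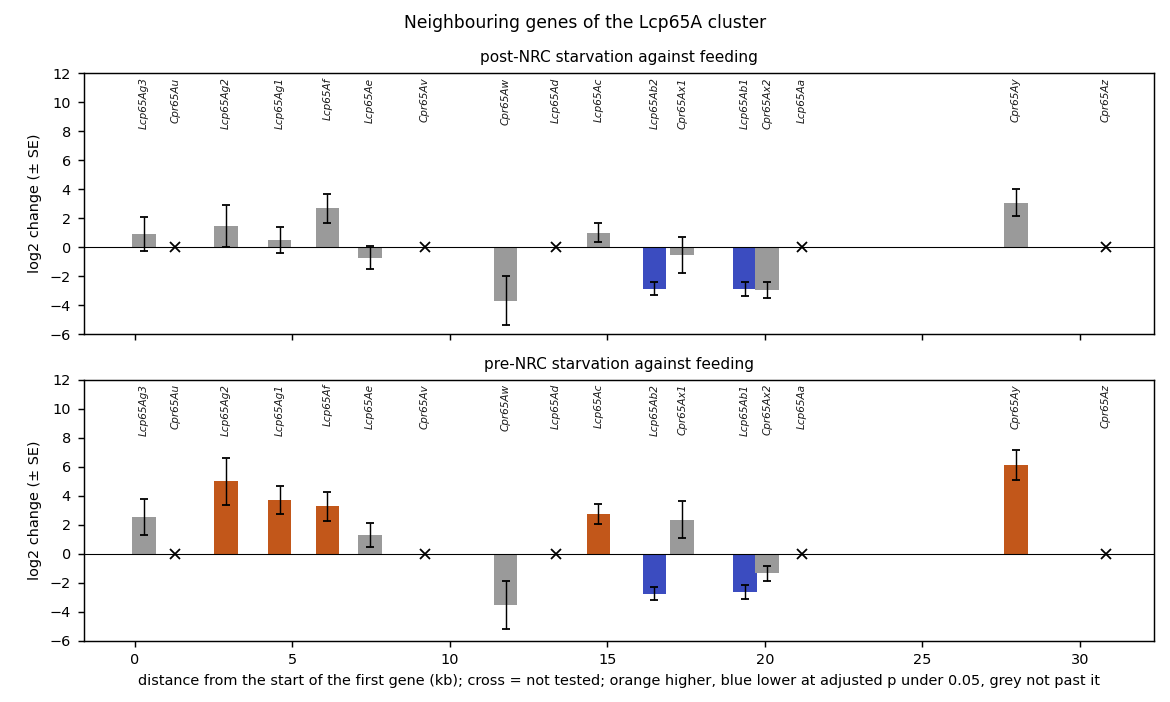
Log2 change (bars, with SE) of the genes of the Lcp65A cluster against their distance from the start of its first gene in kb, for post-NRC against feeding glands (upper panel) and pre-NRC against feeding glands (lower panel); crosses mark genes that were not tested. In the lower panel 5 genes are higher and 2 lower at adjusted p under 0.05, and in the upper panel Lcp65Ab1 and Lcp65Ab2 alone pass, both lower.

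Cpr51A, a gene of the Rebers-Riddiford family outside any cluster, was lower with little spread. It had 1.78, 1.38 and 4.78 CPM in pre-NRC glands, against 33.9, 30.5 and 25.3 CPM in feeding glands. The groups lay far apart (log2 change -3.49 ± 0.47, adjusted p = 0.00282), and the call held in all 9 fits without a library. Lcp9, a further larval cuticle gene, had 6.15, 3.84 and 11.2 CPM in pre-NRC glands and 11.8, 13.7 and 30.9 CPM in feeding glands, just without overlap, and did not pass (log2 change -1.41 ± 0.53, adjusted p = 0.0783).

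Among the Cpr genes that were higher, Cpr47Eb was the most abundant. It had 131, 136 and 33.3 CPM in pre-NRC libraries, against 2.25, 3.42 and 0.612 CPM in feeding libraries. All pre-NRC libraries were far above the feeding ones, with replicate 3 the lowest in both groups (log2 change 5.58 ± 1.21, adjusted p = 0.0129, lost without feeding replicate 1 at adjusted p = 0.0532). Cpr97Eb had 15.4, 20.1 and 1.86 CPM in pre-NRC libraries and 0, 0.242 and 0.0918 CPM in feeding libraries. It too was several times lower in pre-NRC replicate 3 than in its partners, yet above every feeding library (log2 change 6.75 ± 1.22, adjusted p = 0.00678). Cpr100A was even across its group, with 4.1, 5.4 and 5.5 CPM in pre-NRC libraries, against 0.125, 0.0907 and 0.459 CPM in feeding libraries (log2 change 4.45 ± 0.78, adjusted p = 0.00592). The calls of Cpr97Eb and Cpr100A held in all 9 fits without a library. Cpr56F had 32, 46 and 50 counts in pre-NRC libraries and none in any feeding library. Set against a limit of 3 counts over the 3 feeding libraries, it was at least 41-fold higher (adjusted p = 0.02, lost without feeding replicate 1 or 2 or pre-NRC replicate 2). Cpr62Bc had 2.23, 2.21 and 0.528 CPM in pre-NRC libraries and 0, 0.151 and 0 CPM in feeding libraries. These are low levels, and its call (log2 change 4.93 ± 1.60, adjusted p = 0.049) held in 2 of the 9 fits without a library, those without pre-NRC replicate 3 and post-NRC replicate 1.

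The remaining higher genes were Cpr31A, Cpr49Af, Cpr49Ag, Cpr64Ad, Cpr73D and Cpr78Ca among the Cpr genes, with log2 changes of 2.04 or more. Cpr31A had 21.1, 27.9 and 8.28 CPM in pre-NRC libraries, against 0.844, 1.57 and 0.918 CPM in feeding libraries, clearly apart (log2 change 4.10 ± 0.67, adjusted p = 0.00506, passed in all 9 fits without a library). Cpr78Ca, with 14.1, 12.1 and 1.33 CPM in pre-NRC libraries and 0.281, 0.544 and 0.582 CPM in feeding libraries, followed the replicate pattern of Cpr97Eb and TwdlO (log2 change 4.28 ± 1.16, adjusted p = 0.0265). Cpr64Ad was more even, at 8.32, 7 and 5.83 CPM in pre-NRC libraries and 1.44, 0.605 and 0.184 CPM in feeding libraries (3.24 ± 0.72, adjusted p = 0.0141). The pre-NRC values of both genes lay above all feeding values. The neighbours Cpr49Af and Cpr49Ag were the 2 called of 5 tested in the 8-gene Cpr49A cluster. Cpr49Af had 11.9, 11.8 and 32.3 CPM in pre-NRC libraries and 2, 2.66 and 7.13 CPM in feeding libraries (2.25 ± 0.73, adjusted p = 0.0499), and Cpr49Ag had 6.96, 3.59 and 4.58 CPM in pre-NRC libraries and 0.125, 0.454 and 0.612 CPM in feeding libraries (3.65 ± 0.93, adjusted p = 0.022). Both were apart from feeding in every library. Cpr73D (2.04 ± 0.65, adjusted p = 0.0469) passed in none of the 9 fits without a library. Cpr49Af passed in 3, those without post-NRC replicate 2 or 3 and without feeding replicate 3, and adjusted p reached 0.152. Cpr78Ca passed in 4, and its call was lost without any one feeding library or pre-NRC replicate 1 or 2. Cpr49Ag passed in 6, lost without feeding replicate 1 or 2 or pre-NRC replicate 1, and Cpr64Ad in 8, lost without feeding replicate 2. The abundant Cpr49Ac had 21, 27 and 87.6 CPM in pre-NRC libraries and 4.69, 5.08 and 86.8 CPM in feeding libraries. In both groups replicate 3 was the high one, the ranges overlapped, and no difference could be shown (log2 change 0.49 ± 1.08, adjusted p = 0.766).

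The Tweedle genes were low in all groups, apart from a few. They took 6.71, 7.32 and 5.67% of the members' counts in post-NRC replicates 1, 2 and 3, 11.9, 11.9 and 4.68% in pre-NRC and 4.52, 4.25 and 1.17% in feeding replicates. TwdlO, in the 12-gene row on 3R, had 31.2, 38.8 and 2.81 CPM in pre-NRC libraries and 0.156, 0 and 0.153 CPM in feeding libraries. Each pre-NRC library was above each feeding library, but replicate 3 was more than 10 times below the other two (log2 change 7.83 ± 1.83, adjusted p = 0.0167, lost without feeding replicate 1 or 2). Twdlalpha, whose exons overlap another gene on the same strand, was the other Twdl gene called higher. It had 0.482, 1.63 and 0.75 CPM in pre-NRC libraries and 0.0625, 0.151 and 0.153 CPM in feeding libraries (log2 change 2.92 ± 0.78, adjusted p = 0.0256, lost without any one feeding library or pre-NRC replicate 2 at up to 0.114). TwdlG (2.23, adjusted p = 0.0534) passed with the replicate block (adjusted p = 0.0209). TwdlBeta, the Tweedle gene with the highest mean CPM over all 9 libraries, had 15.9, 9.39 and 9.25 CPM in pre-NRC glands and 14.1, 15.6 and 9.28 CPM in feeding glands. These ranges overlapped almost fully (log2 change -0.17 ± 0.34, adjusted p = 0.739).

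**Figure D3:**
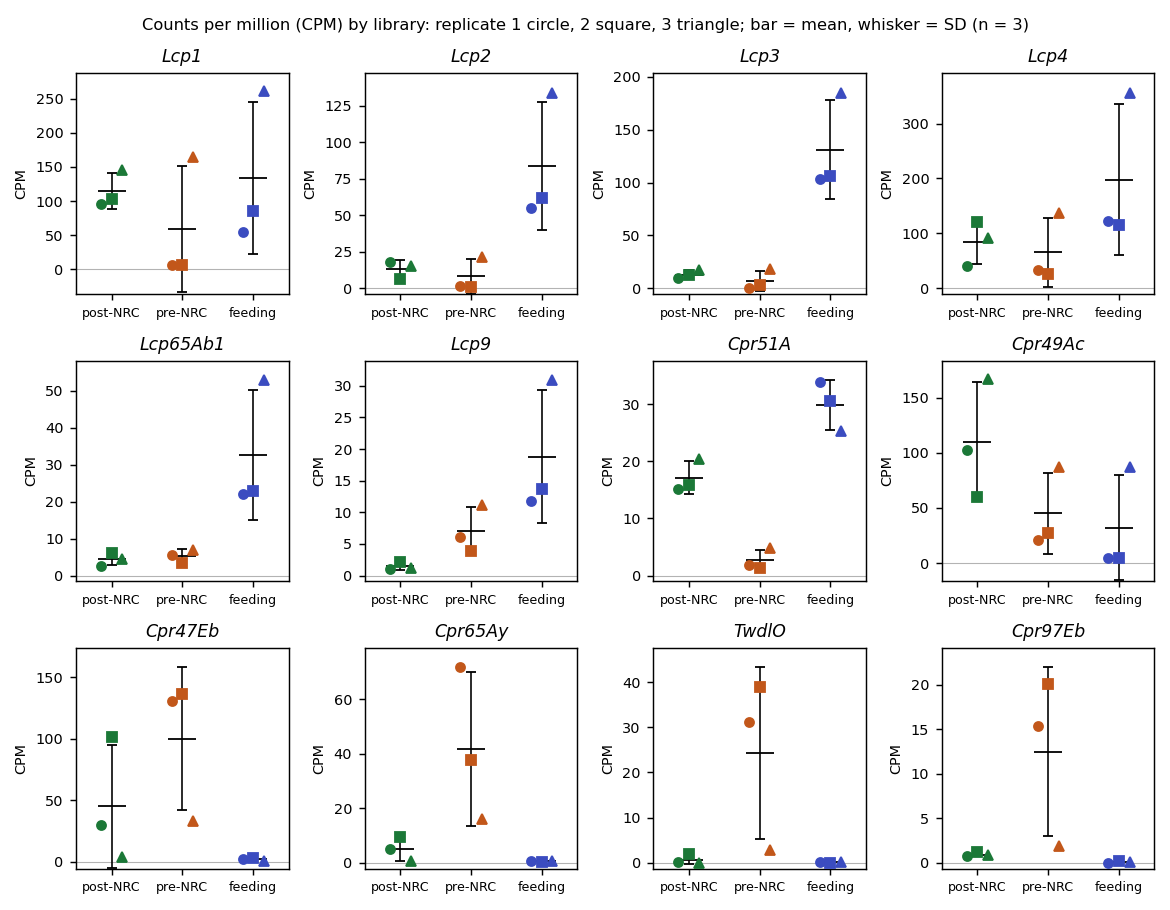
CPM of 12 cuticle protein genes in each library, by group (post-NRC, pre-NRC, feeding), with replicates 1, 2 and 3 as circles, squares and triangles and the mean and SD (n = 3) as bar and whisker; the vertical scale differs between panels. Lcp2, Lcp3, Lcp65Ab1 and Cpr51A are highest in feeding glands, Cpr47Eb, Cpr65Ay, TwdlO and Cpr97Eb are highest in pre-NRC glands, and replicate 3 often lies apart from replicates 1 and 2.

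Post-NRC starvation against feeding asks the same of larvae starved after the checkpoint, and uses the same feeding libraries as the comparison above. Far fewer differences passed here, for all genes and for the cuticle protein genes. None of the 63 tested members was higher, against 0.634% of all 10883 genes, and 3 were lower, against 0.175% of all genes. At an unadjusted p under 0.05, 11 members were higher and 8 lower by edgeR, against 9.67% and 5.12% of all genes. At adjusted p under 0.05 DESeq2 called 7 higher and 6 lower (5.12% and 1.71% of all genes), limma-voom 0 and 1 (0.248% and 0.129%), and the replicate block 2 and 4 (1.19% and 0.579%). The median log2 change was 0.99 over the tested members, with the limit on their selection given above, and 0.0161 over all genes tested.

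The 3 lower genes were larval cuticle genes. Lcp65Ab1 had 2.69, 6.05 and 4.58 CPM in post-NRC replicates 1, 2 and 3, against 22, 22.9 and 52.9 CPM in the feeding replicates. Lcp65Ab2 had 2.31, 5.66 and 4.03 CPM in post-NRC libraries, against 21.6, 23.4 and 43.5 CPM in feeding libraries. Both groups of values were well apart in either gene, with log2 changes of -2.87 ± 0.49 (adjusted p = 0.0366) and -2.88 ± 0.46 (adjusted p = 0.0317). The summed counts of this near-identical pair gave -2.88 (adjusted p = 0.0315), so the calls of Lcp65Ab1 and Lcp65Ab2 are not independent. Lcp9 had 1.01, 2.21 and 1.25 CPM in post-NRC glands, against 11.8, 13.7 and 30.9 CPM in feeding glands, also without overlap (log2 change -3.65 ± 0.59, adjusted p = 0.032). All 3 calls were lost without feeding replicate 1 or 2, without pre-NRC replicate 1 and without any one post-NRC library, each of which left 0 members called lower, with adjusted p of up to 0.14. With only the 2 groups compared in the fit, none of the 3 passed either.

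No other member passed. Lcp3 had 9.47, 12.2 and 17.2 CPM in post-NRC glands, against 103, 106 and 185 CPM in feeding glands, with no overlap (log2 change -3.34 ± 1.09, adjusted p = 0.204). Lcp2 had 18.1, 6.37 and 15.3 CPM in post-NRC glands, against 55.1, 61.9 and 134 CPM in feeding glands, also without overlap (adjusted p = 0.306). Lcp1, at 95.6, 103 and 145 CPM in post-NRC glands, lay within the feeding range of 54.6 to 261 CPM (log2 change -0.22 ± 1.17, adjusted p = 0.957). Lcp4 had 41.2, 120 and 91.8 CPM in post-NRC glands and 122, 116 and 356 CPM in feeding glands, which overlapped (adjusted p = 0.494). Cpr65Ax2 had 2.1, 1.89 and 3.57 CPM in post-NRC glands, against 9.16, 14.1 and 35.7 CPM in feeding glands, without overlap, and narrowly missed the threshold (log2 change -2.96 ± 0.55, adjusted p = 0.0517; 0.0498 with the replicate block). Cpr51A had 15.2, 15.9 and 20.4 CPM in post-NRC glands and 33.9, 30.5 and 25.3 CPM in feeding glands (log2 change -0.80 ± 0.43, adjusted p = 0.439).

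Genes that were high in pre-NRC glands had mixed levels in post-NRC glands. Cpr47Eb had 29.8, 101 and 4.28 CPM in post-NRC libraries and 2.25, 3.42 and 0.612 CPM in feeding libraries, without overlap (log2 change 4.42 ± 1.15, adjusted p = 0.123; 3.96 and 0.0286 with the replicate block). Cpr31A had 7.06, 9.58 and 2.26 CPM in post-NRC libraries and 0.844, 1.57 and 0.918 CPM in feeding libraries (log2 change 2.50 ± 0.63, adjusted p = 0.116; 2.30 and 0.0468 with the replicate block). For Cpr65Ay the values were 5.1, 9.33 and 0.764 CPM in post-NRC libraries and 0.844, 0.242 and 0.704 CPM in feeding libraries. These 2 groups of Cpr65Ay values overlapped through post-NRC replicate 3 (adjusted p = 0.169). TwdlO had 0.28, 1.96 and 0 CPM in post-NRC libraries, against 0.156, 0 and 0.153 CPM in feeding libraries (adjusted p = 0.475). Cpr49Ac, at 103, 60.2 and 167 CPM in post-NRC libraries, had its highest mean in that group, but feeding replicate 3 reached 86.8 CPM and the difference did not pass (log2 change 1.78 ± 1.11, adjusted p = 0.518).

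**Figure D4:**
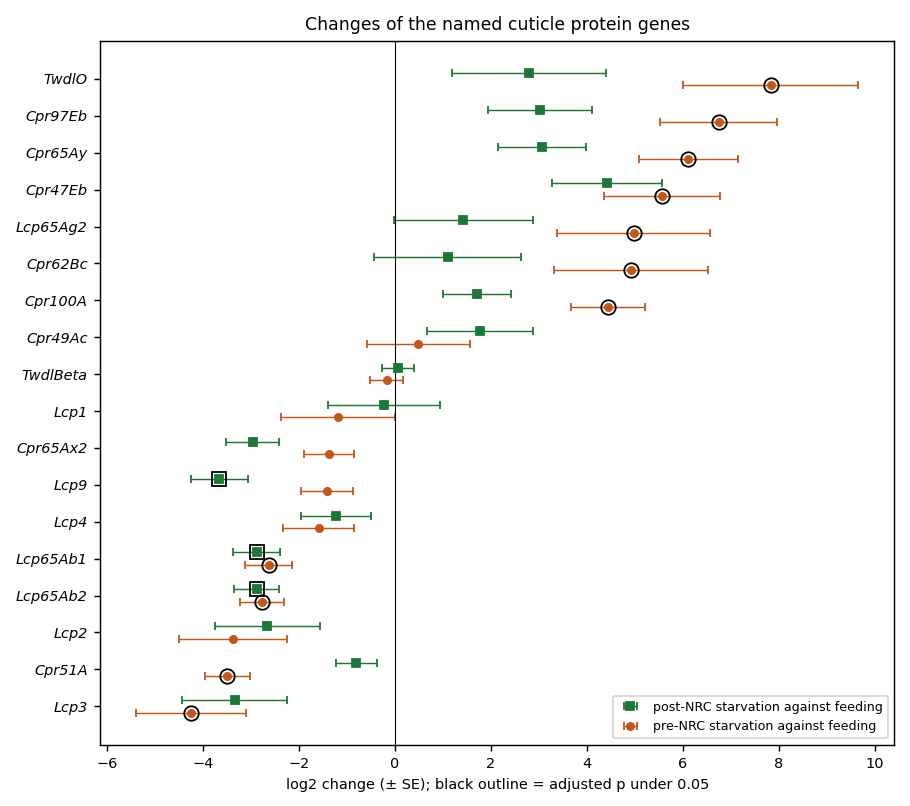
Log2 change (points, with SE) of the named cuticle protein genes against feeding glands, for post-NRC (green squares) and pre-NRC starvation (orange circles); a black outline marks adjusted p under 0.05, and Cpr56F is left out because it had no count in feeding glands. Both comparisons use the same 3 feeding libraries. Lcp65Ab1 and Lcp65Ab2 are outlined in both, Lcp9 in post-NRC alone and the others in pre-NRC alone or in neither.

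Post-NRC against pre-NRC starvation compares the starved groups directly, with the same libraries as above. Stage, age and duration of starvation may all differ between them. Of the 63 tested members 1 was higher, against 1.9% of all genes, and 0 were lower, against 3.29% of all genes. By edgeR at an unadjusted p under 0.05, 1 was higher and 21 were lower, against 12.1% and 14.9% of all genes. At adjusted p under 0.05 DESeq2 called 17 lower (11.4% of all genes) and limma-voom 5 (4.11%). The median log2 change was -1.17 over the tested members and -0.0166 over all genes tested. Members that entered the test through their pre-NRC counts favour a negative median here. Cpr51A, the 1 higher gene, had 15.2, 15.9 and 20.4 CPM in post-NRC libraries and 1.78, 1.38 and 4.78 CPM in pre-NRC libraries, with every post-NRC library above every pre-NRC library. Its log2 change was 2.69 ± 0.46 (adjusted p = 0.0304), with an adjusted p of up to 0.121 when a library was left out. The call was lost without replicate 1 or 2 of any group and held in the 3 fits without a replicate 3.

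Several genes that were high in pre-NRC glands had lower values in post-NRC glands without passing. They were picked for high values in these same pre-NRC libraries. That choice by itself favours lower post-NRC values, so their lack of overlap is not separate evidence of a difference. TwdlO had 0.28, 1.96 and 0 CPM in post-NRC libraries, against 31.2, 38.8 and 2.81 CPM in pre-NRC libraries (log2 change -5.03 ± 1.56, adjusted p = 0.0861). Cpr97Eb had 0.734, 1.17 and 0.916 CPM in post-NRC libraries, against 15.4, 20.1 and 1.86 CPM in pre-NRC libraries (log2 change -3.72 ± 1.03, adjusted p = 0.0674). Neither gene's groups overlapped. Cpr65Ay had 5.1, 9.33 and 0.764 CPM in post-NRC libraries, against 71.6, 37.5 and 16 CPM in pre-NRC libraries, likewise apart (log2 change -3.04 ± 0.88, adjusted p = 0.0742). Cpr100A had 0.384, 0.641 and 1.22 CPM in post-NRC libraries, against 4.1, 5.4 and 5.5 CPM in pre-NRC libraries, and did not overlap either (log2 change -2.73 ± 0.71, adjusted p = 0.0574). Lcp9, which was not high in pre-NRC glands, had 1.01, 2.21 and 1.25 CPM in post-NRC glands, against 6.15, 3.84 and 11.2 CPM in pre-NRC glands, again apart (log2 change -2.24 ± 0.56, adjusted p = 0.0517).

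Other genes of cuticle formation were read from 4 lists beside the families named above; for pre-NRC against feeding glands their counts stand beside 16.1% higher and 11.5% lower over all genes. In pre-NRC against feeding glands, 8 of 16 tested other cuticle proteins (24 matched) were higher and none lower (Ccp84Ab, Ccp84Ag, Edg91, obst-E, obst-F, obst-H, obst-I and obst-J), with a median log2 change of 3.17. The chitin-binding protein gene obst-E had 324, 470 and 56.1 CPM in pre-NRC libraries, against 6.6, 5.65 and 12.9 CPM in feeding libraries, with no overlap (log2 change 5.08 ± 0.81, adjusted p = 0.0046). Its relative obst-F had 112, 89.3 and 261 CPM in pre-NRC libraries, against 17.5, 18.9 and 25.3 CPM in feeding libraries (2.91 ± 0.50, adjusted p = 0.00573). Of 25 genes of chitin synthesis and assembly, 7 were higher and 1 was lower, with a median of -0.06. Gfat1, which starts the pathway to the sugar units of chitin, was higher (1.41 ± 0.23, adjusted p = 0.00493), as was the chitinase-like Idgf1 (4.09 ± 0.68, adjusted p = 0.00541). The chitin deacetylase family gene Cda4 had 24.1, 20.3 and 31 CPM in pre-NRC glands, against 164, 168 and 153 CPM in feeding glands, far apart (-2.69 ± 0.24, adjusted p = 0.000587). Of 16 tested tanning and pigmentation genes, 4 were higher and 1 was lower (median 1.00): Dat and Ddc, which process dopamine and its precursor, rose by 3.02 ± 0.38 (adjusted p = 0.00244) and 3.17 ± 0.59 (adjusted p = 0.00744), and Pu, which makes a cofactor precursor, fell by 1.47 ± 0.21 (adjusted p = 0.00331) on the log2 scale. Of 22 moult regulators, 4 were higher (18.2%, near the share over all genes) and none lower (median -0.23), among them Cyp18a1, which inactivates ecdysone (2.57 ± 0.56, adjusted p = 0.0131), and ETHR, the receptor for ecdysis triggering hormone (2.51 ± 0.58, adjusted p = 0.0158).

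In post-NRC against feeding glands, Cda4 was the 1 gene of these lists that passed, with 47, 67.9 and 72.2 CPM in post-NRC libraries, against 164, 168 and 153 CPM in feeding libraries (log2 change -1.37 ± 0.23, adjusted p = 0.0357). Over all genes, 0.634% were higher and 0.175% lower in this comparison. In post-NRC against pre-NRC glands, 2 genes of the lists were higher (Cda4 and obst-B) and 9 were lower. Over all genes, 1.9% were higher and 3.29% lower. Cda4 was 1 of 25 tested in its list and obst-B 1 of 16. Of chitin synthesis and assembly 4 of 25 genes were lower, and of moult regulators 3 of 22. Of tanning and pigmentation genes and of other cuticle proteins, 1 of 16 was lower in each. The lower ones included obst-F (-3.25 ± 0.51, adjusted p = 0.0281), Cda9 (-2.77 ± 0.48, adjusted p = 0.0309), Gfat1 (-1.14 ± 0.23, adjusted p = 0.0365), Dat (-1.77 ± 0.36, adjusted p = 0.0377), gce (-1.35 ± 0.29, adjusted p = 0.0378) and Cyp18a1 (-2.35 ± 0.55, adjusted p = 0.0473). Cda4 rose by 1.31 ± 0.23 (adjusted p = 0.031) and obst-B, another chitin-binding protein gene, by 1.88 ± 0.34 (adjusted p = 0.0318). Each of these calls between post-NRC and another group was lost without feeding replicate 1 or 2, with an adjusted p of up to 0.175 over the fits that left out a library.

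**Figure D5:**
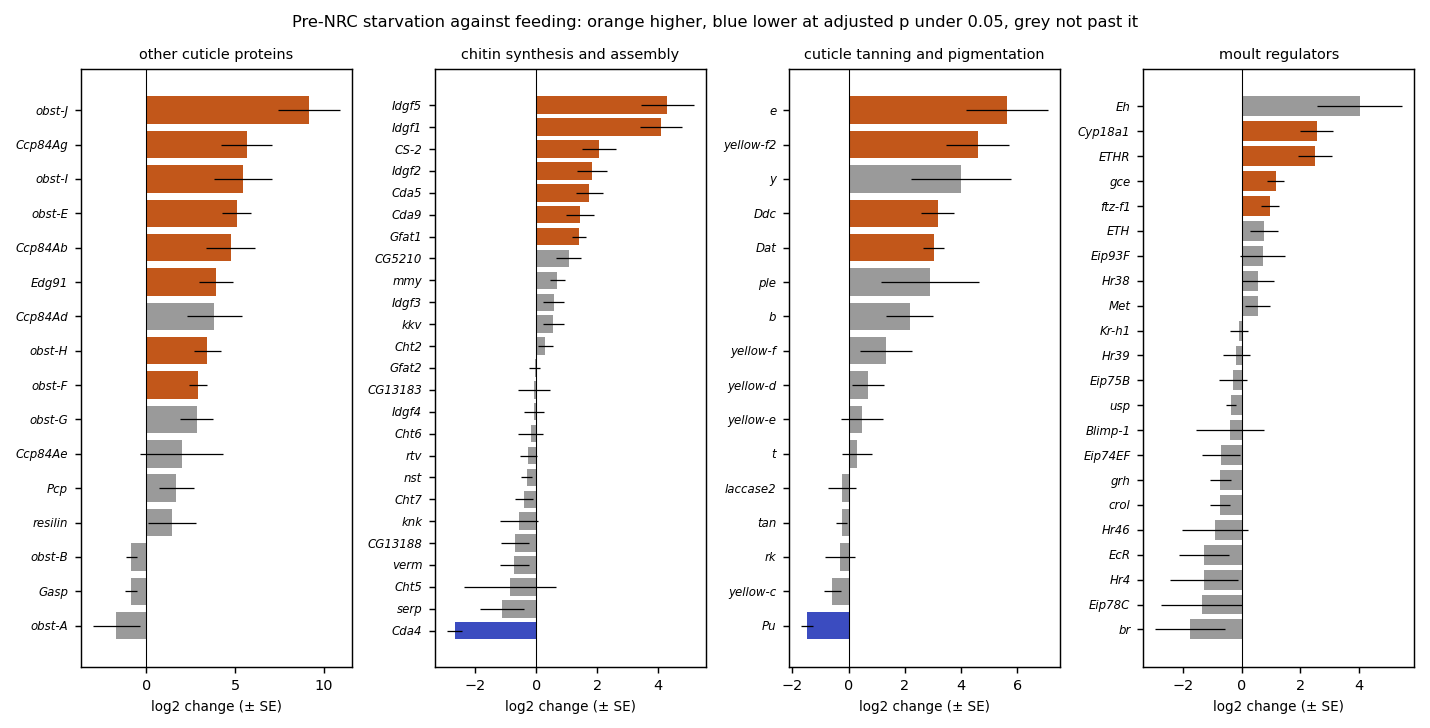
Log2 change (bars, with SE) of the tested genes of 4 lists in pre-NRC against feeding glands, with genes past adjusted p = 0.05 in orange (higher) or blue (lower). In the list of other cuticle proteins 8 of 16 genes are orange, and Cda4 and Pu are the 2 blue genes of the 4 lists.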

How the data were processed

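Total RNA of pooled ring glands was made into libraries with a directional kit and sequenced as paired ends, per the labels' protocols. The authors deposited 1 table with a count and an FPKM value per gene and library; the submitters' processing notes name HISAT2, StringTie, Bowtie, Cufflinks and BDGP6 without roles or versions, and neither these notes nor the labels name the counting tool or strand setting. The FPKM values, scaled by the authors per length and library size, per the file headers, served to compare levels between genes and as an alternative. The feeding columns, headed as wild type, were assigned as the only group without a starvation term.

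Positions came from the BDGP6.54 annotation. Genes were filtered with filterByExpr (10883 kept), scaled by TMM and tested two-sided with edgeR 4.0.16 (quasi-likelihood, all 9 libraries, 1 coefficient per group), with Benjamini-Hochberg adjustment over all genes and a threshold of 0.05; the common coefficient of variation was 50.6%. The scripts were tested on simulated data. Genes were named by rule: the 12 members with the highest mean CPM, up to 8 per direction and comparison with the largest change, and up to 2 per pathway list and direction with the smallest p; any other named gene was chosen after its values were seen. The members and lists were chosen with earlier results of these data known. Of the list symbols, 187 matched the table's symbols, 12 a current symbol and 2 a synonym, and 17 were not found; Gasp, serp, verm and grh stand in both a pathway and a marker list. Alternatives were other scalings, filters, tools (DESeq2 1.42.0, limma 3.58.1) and units, log2(FPKM + 1), each library left out, a term for replicate 3, and the replicate block.

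The replicate numbers may pair the libraries: deviations from the group mean correlated between same-numbered libraries at 0.163, 0.116 and 0.302 for pre-NRC with feeding and at 0.126, 0.119 and 0.297 for post-NRC with feeding. This pairing comes from the data, not from the labels. Replicates 1 and 2 also correlated across numbers (0.0946 to 0.125 in these comparisons). Between the starved groups, same-numbered libraries correlated at 0.0998, 0.149 and 0.365, and replicates 1 and 2 across numbers at -0.0257 and 0.234. The main fit took no groups as paired. The replicate block was an alternative for every comparison.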

Additional observations from a re-analysis of the deposited data

Results flagged for a closer look

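Cpr51A differed between the starved groups by the direct test of that difference: its log2 change in post-NRC against pre-NRC glands was 2.69 (adjusted p = 0.0304), with all 3 post-NRC libraries above all 3 pre-NRC libraries. The gene passed against feeding in pre-NRC glands (-3.49) and not in post-NRC glands (-0.80), and both of these values use the same feeding libraries.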

How the results depend on the processing

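Among the cuticle protein genes, pre-NRC against feeding gave 18 higher and 5 to 17 when each library was left out in turn. No other alternative moved that count by over 1.5 times, but the genes called changed in part. Of the 22 members called in either direction, 21 kept their call with DESeq2, 20 with the replicate block, 19 with only the 2 groups compared and 16 with limma-voom. Without a library, 8 to 20 kept it. The 4 lower genes became 7 with DESeq2, 7 with the replicate block, 8 with a term for replicate 3, 8 with replicates 1 and 2 only, 2 with near-identical copies summed (chosen after seeing the data, and merging genes) and 3 to 8 without a library. Over all genes the number lower rose as well, from 1248 to 1525 with DESeq2 and 2045 with the block. It was 2268 with the replicate 3 term and 2342 with replicates 1 and 2. Without a library, all genes gave 779 to 1884 higher and 387 to 1520 lower. For post-NRC against feeding, 0 higher became 7 with DESeq2, 2 with the replicate block, 2 with the replicate 3 term, 4 with replicates 1 and 2 and 0 to 1 without a library. There, 3 lower became 6 with DESeq2, 1 with limma-voom, 1 with only the 2 groups compared and 0 to 4 without a library. The 1 gene lower with only the 2 groups compared was not among the 3 of the main fit. For post-NRC against pre-NRC, 1 higher became 0 with only the 2 groups, 4 with replicates 1 and 2 and 0 to 4 without a library; 0 lower became 17 with DESeq2, 5 with limma-voom, 3 with a filter of 10 counts, 4 with the replicate block, 11 with the replicate 3 term, 13 with replicates 1 and 2, 14 with FPKM and 0 to 6 without a library.

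Over the 4 pathway lists (alternatives added after seeing the data), pre-NRC against feeding gave 23 higher (9 to 24 without a library) and 2 lower, which became 10 with the replicate block, 11 with the replicate 3 term, 15 with replicates 1 and 2 and 2 to 12 without a library. Post-NRC against feeding gave 0 higher, which became 8 with DESeq2, 1 with the block, 11 with replicates 1 and 2 and 0 to 3 without a library, and 1 lower, which became 2 with each of DESeq2, the block, the replicate 3 term and replicates 1 and 2, 0 with only the 2 groups and 0 to 2 without a library. Post-NRC against pre-NRC gave 2 higher, which became 4 with DESeq2, 0 with only the 2 groups, 9 with the block, 13 with the replicate 3 term, 15 with replicates 1 and 2 and 0 to 9 without a library, and 9 lower, which became 17 with DESeq2, 0 with only the 2 groups, 14 with the replicate 3 term, 21 with replicates 1 and 2, 15 with FPKM and 0 to 15 without a library. The numbers over all genes moved with the setting too. For post-NRC against feeding they went from 69 to 549 higher and from 19 to 184 lower with DESeq2. Replicates 1 and 2 gave 510 and 231. For post-NRC against pre-NRC, 207 higher and 358 lower became 690 and 1196 with DESeq2. There, replicates 1 and 2 gave 1671 and 1370, and only the 2 groups gave 5 and 74. The causes were not tested.

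For the named genes and comparisons, 1349 values under an alternative kept their side of the threshold, 80 newly passed and 139 no longer passed. None that had passed changed sign. The 1349 include values that passed in neither fit, and such values could change sign. Lcp1 did so in post-NRC against feeding (log2 change -0.22, and 0.32 with the replicate block). For post-NRC against pre-NRC, the replicate block newly passed Cpr47Ec, Cpr100A, Lcp9 and Cpr31A. Few counts per library limit the precision for many members, and a difference that did not pass is not shown to be absent.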

Other observations

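Some members were high in a single library. Cpr66Cb had 10.1 CPM in feeding replicate 3 and at most 1.37 CPM in any other library, and Cpr57A had 26 CPM in pre-NRC replicate 2 and at most 4.47 CPM elsewhere. Cpr11B reached 15.6 CPM in feeding replicate 3, next to 4.75 CPM in the library that came second. TwdlN had 3.77 CPM in pre-NRC replicate 2 and at most 1.21 CPM elsewhere. These genes were picked after their values were seen, and none of the 4 passed adjusted p under 0.05 in any comparison.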
